A study of Ovis aries with 9 samples.

Results

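The expression table of ovine granulosa cells (GCs) analysed here listed 60784 transcripts, of which 2644 were small noncoding RNA genes known by the name of an Rfam family. Rfam is a collection of RNA families, each defined by a shared sequence and fold, and the genome annotation uses it to place copies of RNAs such as 7SK, U6 or 5S rRNA along the chromosomes. The genes were taken as all annotated (Ensembl) transcripts whose gene name was an Rfam number, and transcripts assembled from the reads were left out. Each of the 2644 genes had 1 transcript, and together they fell into 390 families, of which 237 held a single gene and 30 held 10 or more. The annotated genes were 40 to 464 bases long, with a median of 107 bases.

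The GCs came from small follicles of thin-tailed Han ewes aged 1 to 1.5 years, and the follicle suspensions of many ovaries were pooled before culture. The cells of all groups first spent 8 h without glucose and serum. They were then kept for 24 h at 0 mM glucose (CON), 8.4 mM glucose (LOW) or 33.6 mM glucose (HIGH), and 3 libraries were made from each group, from total RNA after removal of rRNA. The labels do not say whether the 3 libraries of a group came from separate cultures, so p-values measure the spread between these libraries, which may be technical. Levels are FPKM, the number of fragments per kilobase of transcript scaled to the fragments of the whole library. The deposited counts implied 47988618 to 71302468 fragments per library.

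The cell type label was checked against markers. The GC markers INHA (8.57 to 19.7 FPKM), FST (7.38 to 10.8 FPKM) and INHBA (3.94 to 5.196 FPKM) were found in every library, and the 6 markers of the list that were in the table summed to between 28.8 and 33.4 FPKM in CON, between 26.2 and 28.7 FPKM in LOW and between 23.4 and 28.1 FPKM in HIGH. The follicle stimulating hormone receptor FSHR stood at 0.218 to 0.564 FPKM, AMHR2 at 0.416 to 0.838 FPKM and HSD17B1 at 0.107 to 0.620 FPKM. CYP19A1, FOXL2, AMH and INHBB were not analysed here. The stromal and smooth muscle markers ACTA2 (707 to 931 FPKM) and DCN (243 to 317 FPKM) were far higher. The macrophage marker CD68 stood at 7.45 to 13.1 FPKM, but the immune markers PTPRC (0.00936 to 0.697 FPKM) and CD3E (0 to 0.237 FPKM) were low. The endothelial marker CDH5 and the oocyte marker BMP15 were listed at 0 in all 9 libraries. The endothelial markers PECAM1 (0 to 0.0683 FPKM) and KDR (0.0106 to 0.0886 FPKM) were near 0, and the oocyte marker GDF9 stood at 0.533 to 0.863 FPKM. The summed level of the 5 stromal and smooth muscle markers lay between 1136 and 1304 FPKM in all 9 libraries and was carried by ACTA2 and DCN, while COL1A1 ran from 15.8 to 127 FPKM and PDGFRA from 17.7 to 52.7 FPKM. The part of stromal and immune cells in the results below was not tested, and in RNA from whole cultures fewer cells of a type and less RNA per cell cannot be told apart.

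Most of these RNAs work as the core of a particle of RNA and protein. 7SK holds the elongation factor P-TEFb inactive and so restrains transcription by RNA polymerase II. The RNA of the signal recognition particle (SRP) takes nascent secreted and membrane proteins to the endoplasmic reticulum. RNase P RNA is the catalytic core of the enzyme that trims the leader of tRNA precursors, and the related RNase MRP RNA takes part in cutting the rRNA precursor. Small Cajal body RNAs (scaRNAs) guide the modification of spliceosomal RNAs such as U2 and U5, and small nucleolar RNAs (snoRNAs) guide the modification or the cutting of rRNA.

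The Rfam genes held a large share of all FPKM in these libraries. The share was 46.8%, 57.4% and 60.3% in CON, 56.6%, 62.5% and 57.8% in LOW, and 28.0%, 45.4% and 57.1% in HIGH. The means were 54.8% ± 7.11 (SD, n = 3) in CON, 59.0% ± 3.11 (SD, n = 3) in LOW and 43.5% ± 14.7 (SD, n = 3) in HIGH. The libraries of CON and LOW overlapped, as did those of CON and HIGH, and the highest HIGH library lay above the lowest LOW library. The means differed by -4.14 percentage points between CON and LOW, by 11.4 points between CON and HIGH and by 15.5 points between LOW and HIGH.

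HIGH replicate 1 had the lowest share of the 9 libraries and CON replicate 1 stood apart from the other 2 of its group. Without HIGH replicate 1 the difference of CON and HIGH was 3.60 points and that of LOW and HIGH was 7.74 points. Without CON replicate 1 the difference of CON and LOW was -0.116 points. A locus of assembled long noncoding RNA on chromosome 22 held its largest shares where the Rfam share was lowest. It runs from 2612208 to 2612699 (genome build not given in the sources used here). It held 41.9% of all FPKM in HIGH replicate 1, 17.4% in HIGH replicate 2, 4.61% in HIGH replicate 3 and 1.55% to 6.19% in the CON and LOW libraries. The locus and the Rfam genes are parts of 1 total, so a larger share of the locus leaves less for the Rfam genes. With this locus left out of the total, CON and HIGH differed by 2.58 points and LOW and HIGH by 6.40 points.

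FPKM is a level per length, and short genes weigh heavily in it. Counted in fragments, the Rfam genes took 10.8%, 18.9% and 24.2% of each CON library, 18.8%, 23.0% and 22.1% of each LOW library and 7.96%, 13.4% and 20.9% of each HIGH library. The 95% Wilson interval of the lowest of these shares was 7.95% to 7.96%, and it covers counting error only. HIGH replicate 1 and CON replicate 1 were thus the lowest libraries of their groups on both scales.

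**Figure D1:**
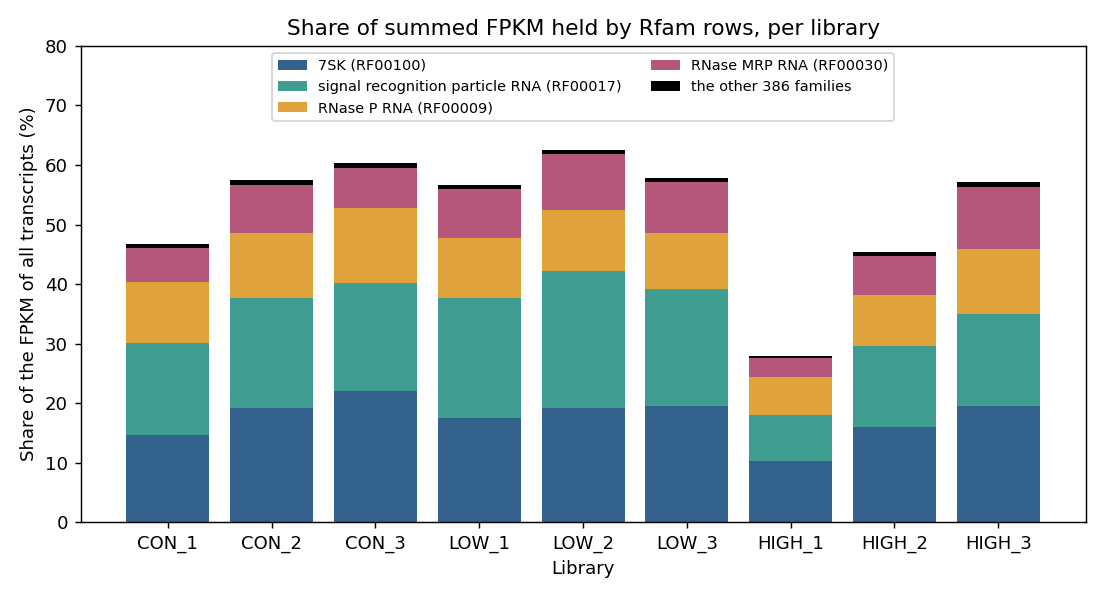
Share of the FPKM of all transcripts (%) held by Rfam genes in each of the 9 libraries, stacked by family. The blocks of 7SK, SRP RNA, RNase P RNA and RNase MRP RNA make up nearly the whole of each bar, and the bars run from 28.0% in HIGH replicate 1 to 62.5% in LOW replicate 2.

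The share rested on 4 families. 7SK, SRP RNA, RNase P RNA and RNase MRP RNA together held 98.6% to 98.8% of the Rfam FPKM in every library, and the other 386 families held the rest. The summed FPKM of those 386 families was 3598 to 10117 per library.

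7SK (RF00100) was the highest family, with 97 annotated genes. Its summed level was 107690, 202526 and 280926 FPKM in CON, 186919, 226743 and 239810 FPKM in LOW, and 93172, 151022 and 227699 FPKM in HIGH. The 3 LOW libraries lay inside the range of CON, and the lowest 2 of all 9 libraries were HIGH replicate 1 and CON replicate 1. A single gene (ENSOARG00000023715, chromosome 20, 25015205 to 25015535, 331 bases) carried 99.99% of the family level. The other 96 copies summed to 18.9 to 39.6 FPKM per library.

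SRP RNA (RF00017) was spread over more than 1 gene. The family level was 115431, 194363 and 232214 FPKM in CON, 214027, 274453 and 240531 FPKM in LOW, and 69427, 127927 and 182407 FPKM in HIGH. All 3 LOW libraries were above all 3 HIGH libraries. The highest gene (ENSOARG00000024340, chromosome 7, 39726641 to 39726939) held 53.2% of the family, and the next 2 lay on the same chromosome at 39908431 to 39908729 and at 39920039 to 39920337, each 299 bases long. A further gene (chromosome 20, 29016884 to 29017167) had 1312 to 6990 FPKM. Reads of such copies can be split between them by the alignment, so the level of a single copy is less certain than that of the family. The 12 assembled transcripts named by this family span the other 2 of these copies on chromosome 7 and held a further 32335 to 223170 FPKM per library, which is not counted in the family level above.

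RNase P RNA (RF00009) came from 1 of its 4 genes (ENSOARG00000023915, chromosome 7, 23928588 to 23928924, 337 bases). Its level was 74543, 114988 and 160787 FPKM in CON, 107944, 120981 and 114533 FPKM in LOW, and 57991, 81699 and 128103 FPKM in HIGH. RNase MRP RNA (RF00030) likewise came from 1 gene of 2 (ENSOARG00000022840, chromosome 2, 52567380 to 52567658, 279 bases). Its level was 43360, 86184 and 84528 FPKM in CON, 87380, 110600 and 105094 FPKM in LOW, and 28233, 61877 and 121898 FPKM in HIGH. For RNase MRP RNA every LOW library exceeded every CON library, whereas the libraries of RNase P RNA overlapped between CON and LOW.

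Among the Rfam genes the balance of the 4 families varied less than their levels. 7SK held 33.7% ± 2.72 (SD, n = 3) of the Rfam FPKM in CON, 31.8% ± 1.79 in LOW and 35.4% ± 1.43 in HIGH. SRP RNA held 31.9% ± 1.59 in CON, 35.5% ± 1.53 in LOW and 28.2% ± 1.44 in HIGH. RNase P RNA held 20.5% ± 1.34 in CON, 16.8% ± 0.944 in LOW and 20.4% ± 2.22 in HIGH. RNase MRP RNA held 12.6% ± 1.61 in CON, 14.7% ± 0.239 in LOW and 14.6% ± 3.53 in HIGH. For SRP RNA the libraries did not overlap between any of the groups, with 34.0% to 37.0% in LOW, 30.2% to 33.4% in CON and 27.3% to 29.9% in HIGH. For RNase P RNA the LOW libraries were below all others, and for 7SK they were below the HIGH libraries. These shares are parts of 1 whole, were not tested, and 1 family cannot rise in them without another falling.

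Ratios within a library do not depend on how the library was scaled, and 3 of them were computed after the values had been seen, so they are given with no test. RNase MRP RNA over RNase P RNA was 0.582, 0.750 and 0.526 in CON, 0.809, 0.914 and 0.918 in LOW, and 0.487, 0.757 and 0.952 in HIGH. The LOW libraries lay above the CON libraries without overlap, and the HIGH libraries covered the range of both. SRP RNA over 7SK was 1.07, 0.960 and 0.827 in CON, 1.15, 1.21 and 1.00 in LOW, and 0.745, 0.847 and 0.801 in HIGH. The LOW libraries lay above the HIGH libraries, and CON overlapped with both. RNase P RNA over 7SK, the last of the 3, was 0.692, 0.568 and 0.572 in CON, 0.577, 0.534 and 0.478 in LOW, and 0.622, 0.541 and 0.563 in HIGH, and every pair of groups overlapped. With the assembled SRP transcripts added, the ratio of SRP RNA to 7SK in CON lay between 1.43 and 1.70, that of LOW between 1.79 and 1.97 and that of HIGH between 1.09 and 1.57, so that CON and LOW no longer overlapped.

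**Figure D2:**
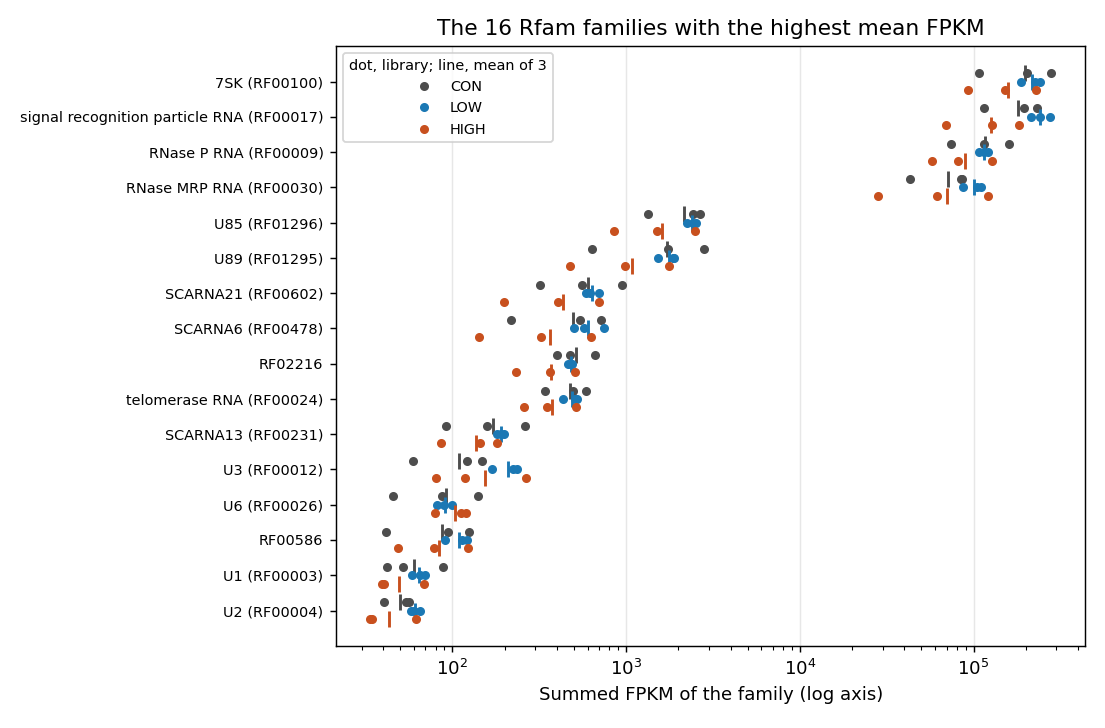
Summed FPKM (log axis) of the 16 Rfam families with the highest mean level, with a dot for each library and a line for the mean of the 3 libraries of a group. The 4 leading families lie at or above 28233 FPKM in every library, the next family, U85, does not exceed 2671 FPKM, and the groups overlap for most families.

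The next level was held by scaRNAs, most of which lay inside protein-coding genes. U85 (RF01296) lies within NCAPD2 on chromosome 3 (207842553 to 207842874, 322 bases) and had 1334, 2421 and 2671 FPKM in CON, 2233, 2519 and 2412 FPKM in LOW, and 847, 1505 and 2483 FPKM in HIGH. The host gene NCAPD2 had a mean of 3.03 FPKM. U89 (RF01295) lies within KPNA4 on chromosome 1 (224999095 to 224999427, 333 bases) and had 639, 1733 and 2812 FPKM in CON, 1517, 1891 and 1861 FPKM in LOW, and 478, 991 and 1756 FPKM in HIGH. Both had their lowest value in HIGH replicate 1 and their next lowest in CON replicate 1, as 7SK had.

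SCARNA21 (RF00602), within CHD3 on chromosome 11 (27146908 to 27147047), ranged from 198 to 941 FPKM. SCARNA6 (RF00478), whose main gene lies within ATG16L1 on chromosome 1 (7484261 to 7484538), ranged from 143 to 743 FPKM. The 5 scaRNA families that could be named, with SCARNA13 (RF00231) as the fifth, summed to 5139 ± 2415 FPKM (SD, n = 3) in CON, 5576 ± 516 FPKM in LOW and 3624 ± 2011 FPKM in HIGH. The 3 groups overlapped for this sum, and the spread between libraries was wider in CON and HIGH than in LOW.

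The telomerase RNA (RF00024), the template of the enzyme that extends chromosome ends, was a single gene on chromosome 1 (215644951 to 215645380, 430 bases). It had 341, 497 and 586 FPKM in CON, 435, 519 and 508 FPKM in LOW, and 257, 351 and 516 FPKM in HIGH. RF02216, a family of 7 genes, stood at a similar level. It had 401, 479 and 666 FPKM in CON, 466, 483 and 489 FPKM in LOW, and 233, 365 and 508 FPKM in HIGH, and its leading gene (chromosome 17, 14567089 to 14567180, 92 bases) gave 52.6% of it. Both were among the 10 leading families, and only 68 of the 36513 genes not named by an Rfam family had a mean FPKM above that of telomerase RNA.

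The spliceosomal RNAs had low FPKM beside them. U6, U1 and U2 have many copies, and how reads that match several copies were counted was not tested. Their levels here were therefore not taken as those in the cells. The 9 families summed to 223 ± 15.3 FPKM (SD, n = 3) in CON, 235 ± 16.98 FPKM in LOW and 213 ± 13.2 FPKM in HIGH, a range of 201 to 250 FPKM over all libraries. This sum varied far less between libraries than the 4 leading families did, but single families within it varied more than the sum. The largest of them, U6 (RF00026), ranged from 45.6 to 141 FPKM. U1 (RF00003) ranged from 39.5 to 87.8 FPKM over 62 genes, and U2 (RF00004) from 33.7 to 65.4 FPKM over 41 genes. U5 (RF00020) ranged from 8.61 to 17.2 FPKM and U4 (RF00015) from 0.683 to 4.03 FPKM.

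U6 (RF00026), the catalytic RNA of the spliceosome, was the largest family, with 1012 genes on 30 chromosomes and scaffolds. It had 141, 87.4 and 45.6 FPKM in CON, 99.96, 81.8 and 89.9 FPKM in LOW, and 120, 112 and 79.5 FPKM in HIGH. Its highest libraries were CON replicate 1 and HIGH replicate 1, where 7SK was lowest, and its lowest was CON replicate 3, where 7SK was highest. Of the 1012 copies, 286 were above 0 in at least 1 library and 23 had a mean of 1 FPKM or more. The highest copy held 7.44% of the family, against 99.99% for the highest copy of 7SK.

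Other families of many copies were lower still. 5S rRNA (RF00001), an RNA of the large ribosomal subunit, had 300 genes, of which 61 were above 0, and summed to 2.75 to 7.62 FPKM. All 5 genes of 5.8S rRNA (RF00002) were listed at 0 in all 9 libraries, so no fragment was assigned to them. An expected count of up to 3 fragments per gene and library cannot be told from 0. Both RNAs are ribosomal, and rRNA had been removed before the libraries were made. The Y RNAs (RF00019), bound by the Ro protein, summed to 0.162 to 1.92 FPKM over 14 genes, and vault RNA (RF00006) to 0.103 to 0.535 FPKM over 12 genes.

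In clusters of snoRNA genes nearly every copy was listed above 0, at a level that can stand for less than 1 fragment. All 15 genes of SNORD116 (RF00108) lay on chromosome 18 between 1044745 and 1121322, and all 15 were above 0. The lowest of them (1075951 to 1076042) had 6.4e-05 to 0.0920 FPKM. Each of the 15 was overlapped by 5 to 12 assembled transcripts, and a share of their reads in these values was not tested. Their sum was 14.98, 8.31 and 5.71 FPKM in CON, 7.78, 7.60 and 7.20 FPKM in LOW, and 16.3, 12.2 and 6.33 FPKM in HIGH. The highest 2 libraries were again HIGH replicate 1 and CON replicate 1. The 5 genes of SNORD115 (RF00105) followed on the same chromosome, from 1192086 to 1200527. SNORD113 and SNORD114 (RF00181) had 40 genes between 64517075 and 64598038 of chromosome 18, of which 39 were above 0, and summed to 1.998 to 5.62 FPKM. In other mammals these clusters lie in imprinted regions and are made from the introns of long transcripts.

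Over all families, 1191 of the 2644 genes were above 0 in at least 1 library, 531 in every library, and 687 to 875 in any one library. A mean of 1 FPKM or more was reached by 305 genes and a mean of 100 FPKM or more by 15. Genes inside an annotated gene with a symbol were above 0 more often, with 457 of 737 (62.0%) against 734 of 1907 (38.5%) elsewhere, but they held only 0.911% of the Rfam FPKM. Among the host genes, EIF4A1, RPS12, NOP56 and NOP58 each hosted 4 Rfam genes with a mean of 1 FPKM or more. NOP56 and NOP58 encode core proteins of the C/D box snoRNA particle.

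The summed FPKM lay in few long genes, whereas the genes of up to 80 bases were the most often above 0. The 127 genes over 250 bases held 99.5% of the Rfam FPKM, with 56 of them (44.1%) above 0 and 17 (13.4%) at 1 FPKM or more. Of the 1525 genes of 81 to 120 bases, 78 (5.11%) reached 1 FPKM, and the highest stood at 239 FPKM. Of the 242 genes of up to 80 bases, 190 (78.5%) were above 0 and 68 (28.1%) reached 1 FPKM, but none exceeded 35.7 FPKM. The selection of fragments by size during library preparation was not tested here.

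**Figure D3:**
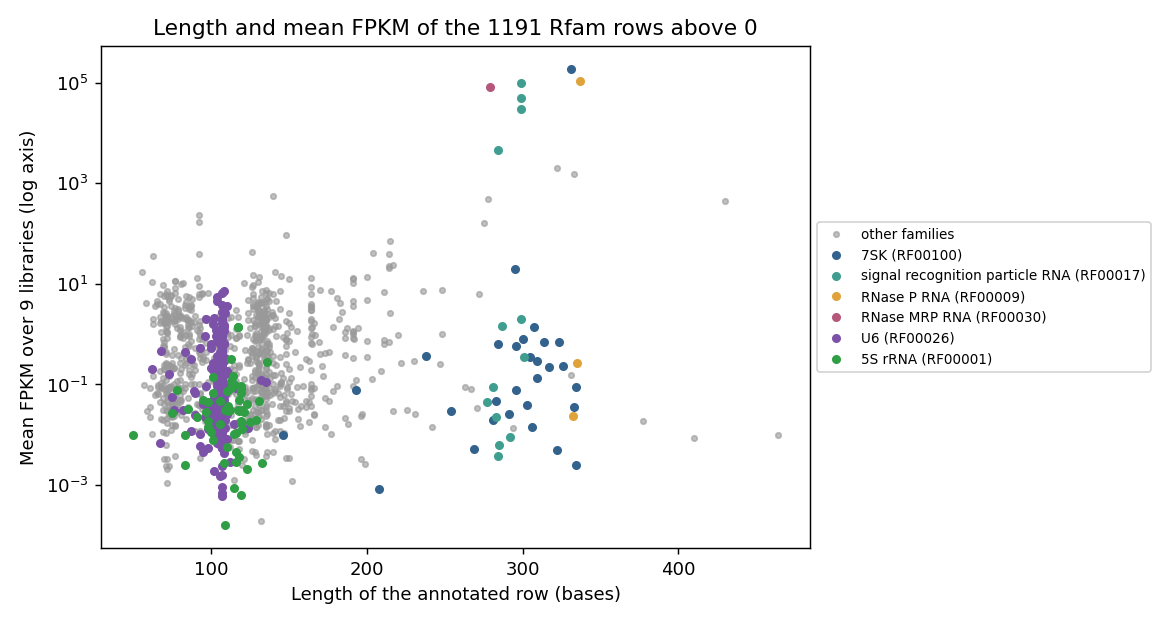
Length of each Rfam gene (bases) against its mean FPKM over the 9 libraries (log axis) for the 1191 genes above 0, with 6 families in colour. The main copies of 7SK, SRP RNA, RNase P RNA and RNase MRP RNA stand at the top between 279 and 337 bases, and further copies of 7SK and SRP RNA of like length lie orders of magnitude below them.

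The difference between libraries of the same group was shared by many families. Of the 44 families with a mean of 10 FPKM or more, 23 had their lowest value in HIGH replicate 1, 22 had their highest in CON replicate 3, and 30 were higher in CON replicate 3 than in CON replicate 1. Among the 9 of these families with a median length of 250 bases or more, all 9 were lowest in HIGH replicate 1 and all 9 were higher in CON replicate 3 than in CON replicate 1. The ratio of the highest to the lowest library had a median of 3.15 in those 9 families and of 1.93 in the 35 shorter ones. The steadiest was RF02153, a gene of 63 bases within NBR1, at 33.3 to 39.7 FPKM, and the most variable was U89 with a ratio of 5.88.

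To ask whether glucose changed single families, the families were fitted with all other genes by limma on log2(FPKM + 0.1), with libraries scaled on genes outside the Rfam set. Of the 390 families, 271 had 0.1 FPKM or more in at least 3 libraries. Families were called where p, adjusted over all 23887 features, was under 0.05 and the absolute log2 fold change exceeded 1. None of the 271 families was called. Of all features, 0.00419% were called between CON and LOW, 0.00837% between CON and HIGH and 0.00419% between LOW and HIGH. The smallest adjusted p of a family (limma) was 1 for CON versus LOW, 0.676 for CON versus HIGH and 0.629 for LOW versus HIGH. edgeR and DESeq2, run on the deposited counts, called 0 families as well. In the same order edgeR called 1, 0 and 0 of 28346 features, and DESeq2 called 285, 313 and 485 of 27952.

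At an unadjusted p under 0.05, limma gave 17 families (6.27%) in CON versus LOW, beside 1.94% of all features. Of these 3 were higher and 14 lower in CON, where 0.917% and 1.03% of all features were. It gave 19 families (7.01%) in CON versus HIGH, beside 6.83%, with 11 higher and 8 lower in CON, beside 2.73% and 4.1%. In LOW versus HIGH it gave 27 (9.96%), beside 7.17%, with 21 higher and 6 lower in LOW, beside 2.34% and 4.82%. Among the 165 families with a mean of 10 or more estimated fragments the counts were 11, 7 and 20 (6.67%, 4.24% and 12.1%), beside 1.82%, 6.82% and 7.17% of all features under that filter. With edgeR the counts were 3, 3 and 8 of 303 families (0.990%, 0.990% and 2.64%), beside 2.33%, 5.98% and 6.57% of all features. With DESeq2 they were 6, 4 and 8 (1.98%, 1.32% and 2.64%), beside 5.10%, 12.2% and 12.4%. With both count tools the share of families was below that of all features in each comparison. The deposited counts of spliced genes follow genomic span and are not fragments, so these shares do not compare like with like. After scaling, the libraries of CON and LOW did not overlap for 32 families (11.8%), beside 6.18% of all features. Those of CON and HIGH did not overlap for 22 (8.12%), beside 10%, and those of LOW and HIGH for 34 (12.5%), beside 18.1%.

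The 271 families had a median log2 fold change of -0.13 for CON over LOW, 0.03 for CON over HIGH and 0.09 for LOW over HIGH, where the median of all features was -0.02, -0.08 and -0.04. Families with a positive fold change numbered 109 (40.2%), 143 (52.8%) and 166 (61.3%), beside 45.7%, 42.8% and 45.7% of all features. The comparisons share libraries, so these values are not independent of each other.

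For the 4 leading families the intervals were wide. 7SK had a log2 fold change of -0.34 (SE 0.78) for CON over LOW, 0.29 (SE 0.78) for CON over HIGH and 0.63 (SE 0.78) for LOW over HIGH. The 95% interval of the last ran from -1.13 to 2.39, which includes both 0 and changes well above the threshold of 1. The width depended on the features fitted beside it. For the 7SK gene of chromosome 20, which held nearly all of the family's FPKM, the fit of single transcripts gave 0.61 (SE 0.48), with an interval of -0.49 to 1.71. SRP RNA had -0.58 (SE 0.75), 0.54 (SE 0.75) and 1.12 (SE 0.75) in the same order, with an interval of -0.58 to 2.81 in LOW versus HIGH. RNase MRP RNA had -0.66 (SE 0.69), 0.16 (SE 0.69) and 0.82 (SE 0.69), and RNase P RNA had -0.14 (SE 0.64), 0.37 (SE 0.64) and 0.51 (SE 0.64).

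The scaRNAs and telomerase RNA were not called either. In LOW versus HIGH the log2 fold change was 0.77 (SE 0.43) for U85, 0.97 (SE 0.61) for U89, 0.80 (SE 0.51) for SCARNA21 and 1.04 (SE 0.59) for SCARNA6. It was 0.51 (SE 0.31) for telomerase RNA and 0.52 (SE 0.31) for RF02216. All 10 leading families had a negative value in CON versus LOW and a positive one in LOW versus HIGH, and none of these passed the test. In CON versus HIGH their log2 fold changes were 0.16 to 0.61. The signs rested on single libraries. Without CON replicate 1, 8 of the 10 turned positive in CON versus LOW, 7SK with 0.09 and RNase P RNA with 0.20 among them. Without HIGH replicate 1, 3 of the 10 turned negative in CON versus HIGH, of which 7SK had -0.04 and RNase MRP RNA -0.38. In that comparison 2 of the 10 turned negative without CON replicate 3 and 1 without CON replicate 2. RF02216, at -0.03 in CON versus LOW, also turned positive there with no scaling of the libraries (0.07), scaled on the median of the members (0.02), with DESeq2 (0.05) and with edgeR (0.04). In LOW versus HIGH all 10 stayed positive under each alternative run.

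**Figure D4:**
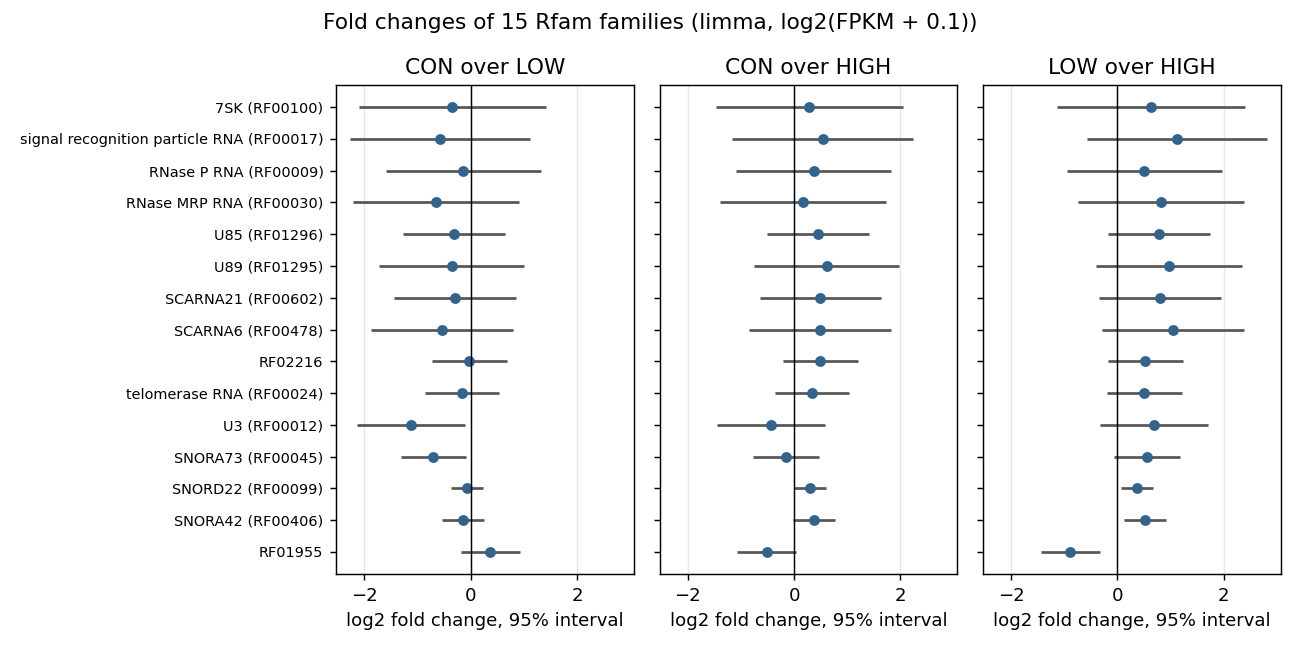
Log2 fold changes of 15 Rfam families in the 3 comparisons (limma, first group over second), each with its 95% interval as a line. The intervals of the 4 leading families are the widest and include 0 throughout, and no family was called after adjustment over all features.

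Among families with a mean of 10 FPKM or more, the smallest p-values in CON versus LOW belonged to snoRNAs of rRNA processing. SNORA73 (RF00045) had 32.5, 39.98 and 31.7 FPKM in CON, 47.1, 61.2 and 50.04 FPKM in LOW, and 25.99, 36.5 and 56.3 FPKM in HIGH. CON and LOW did not overlap, and HIGH overlapped with both. Its log2 fold change was -0.70 (SE 0.27, limma, adjusted p = 1). U3 (RF00012), which takes part in the first cuts of the rRNA precursor, had 121, 149 and 59.3 FPKM in CON, 224, 170 and 234 FPKM in LOW, and 79.999, 119 and 264 FPKM in HIGH. Again every LOW library was above every CON library, with a log2 fold change of -1.12 (SE 0.45, limma, adjusted p = 1).

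U3 had 13 genes, 5 of them on chromosome 11 between 9129252 and 9159313. The highest copy (9146205 to 9146419) held 45.8% of the family and had 51.6, 72.8 and 26.7 FPKM in CON, 113, 52.7 and 115 FPKM in LOW, and 39.9, 44.8 and 134 FPKM in HIGH. The next copy (9129252 to 9129465) had 31.1, 37.6 and 10.7 FPKM in CON, 52.02, 52.6 and 58.8 FPKM in LOW, and 18.9, 40.2 and 56.8 FPKM in HIGH. The first copy overlapped between CON and LOW and the second did not, and reads may have been shared between them.

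In CON versus HIGH the smallest p-values were those of SNORD22 (RF00099) and SNORA42 (RF00406), snoRNAs of the C/D and H/ACA box classes. SNORD22 had 19.2, 19.5 and 22.7 FPKM in CON, 20.4, 19.3 and 20.3 FPKM in LOW, and 16.9, 15.8 and 16.1 FPKM in HIGH. All HIGH libraries were below all libraries of the other groups, with a log2 fold change of 0.30 in CON versus HIGH (SE 0.13, limma, adjusted p = 0.676). SNORA42 had 14.3, 13.5 and 17.6 FPKM in CON, 16.9, 14.996 and 14.8 FPKM in LOW, and 9.12, 12.9 and 12.3 FPKM in HIGH. Its HIGH libraries too were the lowest 3 of the 9, with a log2 fold change of 0.38 (SE 0.17) for CON over HIGH and of 0.53 (SE 0.17) for LOW over HIGH.

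RF01955, a single gene, had the smallest p-value of these families in LOW versus HIGH. It had 12.1, 9.85 and 7.20 FPKM in CON, 7.83, 6.69 and 6.18 FPKM in LOW, and 19.5, 13.2 and 9.36 FPKM in HIGH. Every HIGH library was above every LOW library, with a log2 fold change of -0.88 (SE 0.24, limma, adjusted p = 0.629). Its highest value was in HIGH replicate 1, the library in which the 4 leading families were lowest.

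Single genes were fitted in the same way among 39411 transcripts, and 708 of the 2644 Rfam genes had 0.1 FPKM or more in at least 3 libraries. None was called, where 0.0228% of all transcripts were between CON and LOW, 0.0228% between CON and HIGH and 0.0254% between LOW and HIGH. At an unadjusted p under 0.05 limma gave 44 genes (6.21%) between CON and LOW beside 2.84% of all transcripts, 37 (5.23%) between CON and HIGH beside 6.03%, and 60 (8.47%) between LOW and HIGH beside 6.62%. After scaling, the libraries of the groups did not overlap for 68, 54 and 90 genes in the same order (9.60%, 7.63% and 12.7%), beside 7.11%, 9.79% and 15.8% of all transcripts. DESeq2 called 1, 1 and 2 Rfam genes in the 3 comparisons, among 880, 908 and 1219 transcripts in all, and edgeR called 0, among 2, 0 and 3. With edgeR, 19, 18 and 20 of 882 genes (2.15%, 2.04% and 2.27%) had an unadjusted p under 0.05, beside 2.88%, 4.99% and 5.39% of all transcripts. With DESeq2, 14, 14 and 20 (1.59%, 1.59% and 2.27%) had one, beside 6.32%, 11.2% and 11.3%. As for the families, the shares from these count tools do not compare like with like. Only 256 of the 2644 genes had a mean of 10 or more estimated fragments, and among those 17, 9 and 30 genes (6.64%, 3.52% and 11.7%) had an unadjusted p under 0.05 with limma, beside 2.77%, 6.03% and 6.60% of all transcripts under that filter.

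One U2 gene, named here after its values were seen, stood out among the single genes. It lies on chromosome 11 (ENSOARG00000023306, 42696261 to 42696451, 191 bases) and had 0.131, 0.143 and 0.163 FPKM in CON, 7.55, 6.35 and 8.09 FPKM in LOW, and 3.55, 0.153 and 6.60 FPKM in HIGH. In estimated fragments that was 2, 2 and 2 in CON, 74, 79 and 74 in LOW, and 41, 2 and 63 in HIGH. All CON libraries and HIGH replicate 2 were near the floor, and the other 5 were not. From the summed fragments, LOW was 45.5-fold above CON, with an exact 95% interval of 20.6 to 125 that covers counting error only. These fragments are rounded up, which weighs most on the low CON values.

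The fit gave this gene a log2 fold change of -5.00 in CON versus LOW (SE 1.02, limma, adjusted p = 0.726), since HIGH varied so widely. With only CON and LOW in the fit the adjusted p was 0.00319, without HIGH replicate 2 it was 0.00207, and with DESeq2 it was 7.9e-05. In CON versus HIGH the adjusted p was 0.762 in the full fit, 0.00966 without HIGH replicate 2 and 0.00606 with DESeq2. The other 40 U2 genes showed no such gap and summed to 40.2, 53.6 and 56.2 FPKM in CON, 57.8, 51.3 and 51.7 FPKM in LOW, and 30.9, 33.5 and 55.4 FPKM in HIGH. Further U2 genes lie close by on chromosome 11, such as those at 42719026 to 42719216 and at 42722558 to 42722748, and a shift of reads between near copies was not tested. The U2 gene with the gap was also overlapped by 6 assembled transcripts, and a shift of reads between it and them was not tested.

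**Figure D5:**
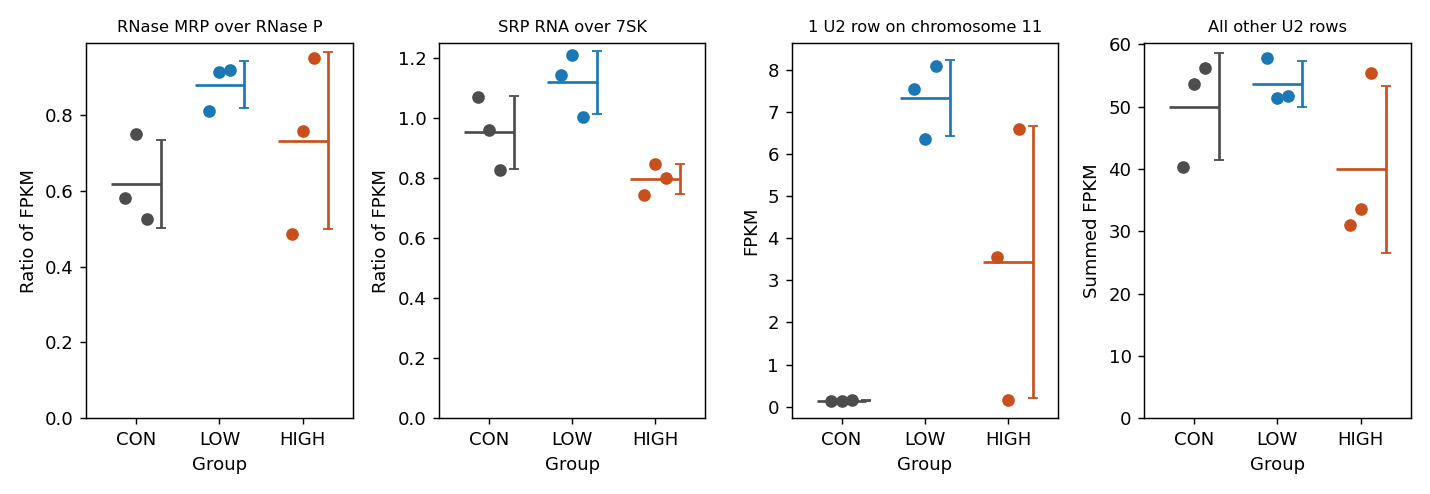
Ratios of RNase MRP RNA to RNase P RNA and of SRP RNA to 7SK, and FPKM of the U2 gene at 42696261 of chromosome 11 and of all other U2 genes, with a dot per library, a line for the mean of 3 and a bar for 1 SD. The first ratio separates LOW from CON and the second LOW from HIGH, and the U2 gene is near 0 in CON and in 1 HIGH library while the other U2 genes overlap between all groups.

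The DESeq2 calls in LOW versus HIGH were both SRP RNA genes, also named after their values were seen. The SRP copy of chromosome 7 with the lowest level of the 3 above (39920039 to 39920337) had 36030, 55708 and 40236 FPKM in LOW and 15281, 21983 and 21536 FPKM in HIGH, without overlap. Its log2 fold change was 1.21 with limma (SE 0.28, adjusted p = 0.566) and 1.29 with DESeq2 (adjusted p = 0.000784). In CON it had 21514, 33260 and 28267 FPKM. The 12 assembled transcripts that span this copy held 131806 to 223170 FPKM in LOW and 32335 to 174247 FPKM in HIGH, with overlap. A shift of reads between the copy and these transcripts was not tested. The other DESeq2 call was a gene on chromosome 9 (4955251 to 4955551) with 0 to 15 estimated fragments per library (DESeq2 adjusted p = 0.0441).

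The smallest adjusted p-value of any Rfam gene in the limma fit came from very few reads. It belonged to a gene of the SNORD113 and SNORD114 family (chromosome 18, 64531290 to 64531365), which was listed at 0 in all CON libraries and had 0.808, 0.552 and 0.444 FPKM in HIGH (limma, adjusted p = 0.151 in CON versus HIGH). The HIGH values stood for 4, 3 and 2 estimated fragments after rounding up, and LOW had 1, 0 and 0.

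The proteins that work with these RNAs were taken as 10 lists of 152 genes in all, of which 127 were tested. None was called in any comparison. At an unadjusted p under 0.05, 0 genes were higher and 1 (0.787%) was lower in CON than in LOW, where 0.917% and 1.03% of all features were. Against HIGH, 8 (6.30%) were higher and 4 (3.15%) lower in CON, beside 2.73% and 4.1% of all features, and 8 (6.30%) were higher and 5 (3.94%) lower in LOW, beside 2.34% and 4.82%. The medians of the 10 lists as log2 fold changes ran from -0.12 to 0.10 for CON over LOW, from -0.16 to 0.30 for CON over HIGH and from -0.06 to 0.29 for LOW over HIGH.

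For the RNase P and RNase MRP proteins all 7 tested genes had a positive value in both comparisons with HIGH, with medians of 0.30 and 0.29, and 1 and 0 of them had an unadjusted p under 0.05. Over all features 42.8% and 45.7% had a positive value, the medians were -0.08 and -0.04, and 6.83% and 7.17% had an unadjusted p under 0.05. RPP21, a subunit of RNase P, had 4.02 ± 0.369 FPKM (SD, n = 3) in CON, 3.63 ± 1.07 FPKM in LOW and 2.68 ± 0.543 FPKM in HIGH. For the 8 SRP proteins the median was -0.12 in CON versus LOW and 0.27 in LOW versus HIGH, beside -0.02 and -0.04 over all features. SRP54, the subunit that binds the signal sequence, had 13.7 ± 0.230 FPKM in CON, 13.6 ± 0.333 FPKM in LOW and 12.5 ± 0.782 FPKM in HIGH. SRP68 had a log2 fold change of -0.61 (SE 0.35) in CON versus HIGH.

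Of the 7SK particle, MEPCE, the enzyme that caps 7SK, had 6.65 ± 1.27 FPKM in CON, 5.08 ± 0.174 FPKM in LOW and 5.84 ± 0.220 FPKM in HIGH. The smallest adjusted p-value of the partner genes was that of INTS12, a subunit of the integrator complex that cuts the ends of spliceosomal RNA precursors. It had 11.03 ± 0.925 FPKM in CON, 9.40 ± 0.752 FPKM in LOW and 6.48 ± 0.755 FPKM in HIGH, a log2 fold change of 0.74 in CON versus HIGH (SE 0.14, limma, adjusted p = 0.471).

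Of the snoRNA particle proteins, NOP58 of the C/D box class had 15.8 ± 0.748 FPKM in CON and 11.9 ± 1.006 FPKM in HIGH, a log2 fold change of 0.39 (SE 0.13). NOP10 of the H/ACA box class had 45.9 ± 11.9 FPKM in CON and 26.7 ± 7.53 FPKM in HIGH, or 0.76 (SE 0.28). In CON versus LOW the leading genes were RRP9 with 0.32 (SE 0.26) and GAR1 with -0.59 (SE 0.29). Among spliceosomal proteins SNRPF had -1.25 (SE 0.49) in CON versus LOW and SF3A1 had -0.83 (SE 0.26) in CON versus HIGH.

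No gene of the remaining lists was called either. PRMT5, which methylates Sm proteins, had 0.14 (SE 0.11) in CON versus LOW, and GEMIN2 of the SMN complex had 0.74 (SE 0.26) in CON versus HIGH on the log2 scale. For RNA polymerase III, which transcribes 7SK, U6, 5S rRNA, RNase P and RNase MRP RNA, POLR3E had 0.34 (SE 0.20) in CON versus LOW and the factor SNAPC5 had 1.12 (SE 0.46) in CON versus HIGH. RO60, the Ro protein that binds Y RNA, had 0.22 (SE 0.10) in CON versus HIGH and the vault protein TEP1 had 0.16 (SE 0.14) in CON versus LOW. RPP25L had -0.17 (SE 0.19), SRP54 -0.09 (SE 0.11), INTS12 0.13 (SE 0.14) and MEPCE 0.27 (SE 0.17) in CON versus LOW.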

How the data were processed

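RNA of GCs after rRNA removal was sequenced in 9 libraries, 3 per group. The authors aligned reads with Hisat2, assembled transcripts with Stringtie and deposited FPKM per transcript. The submitters' processing notes also name TopHat2, STAR 2.5.1b and HTSeq 0.6.0. Their deposited estimated counts per transcript equal FPKM times genomic span times 1 factor per library, rounded up. For unspliced Rfam genes they stand for fragments, but after rounding up a listed 1 can be a small part of 1 fragment. For spliced genes the genomic span includes introns, so their deposited counts are not fragments. Ensembl genes without a symbol followed a second factor, which was removed. The genome build and the strand setting are not given in the sources used here.

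Rfam genes were selected by name and summed by family. Tests used limma 3.58.1 (R 4.3.3) with a trend, all 9 libraries and 3 groups in 1 model. Libraries were scaled on the median of features outside the Rfam set with 1 FPKM or more in every library. Features needed 0.1 FPKM or more in 3 libraries. Adjustment (BH) ran over all features. Fold changes on log2(FPKM + 0.1) understate changes of low genes. Alternatives included edgeR 4.0.16 and DESeq2 1.42.0 on the deposited counts. Scripts were tested on simulated counts with known changes. With 3 libraries against 3 an exact permutation test cannot go below p = 0.1, so none was run on single values.

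Families named are the 10 with the highest mean share and, per comparison, the 2 with the smallest p among those with a mean of 10 FPKM or more. Single genes named are the 10 highest and the highest of each leading family, and partner genes are those with the smallest p per list in the comparisons with CON. Some genes that these rules name are not reported here. Members, lists and rules were chosen with earlier results of these data known. The U2, SRP and SNORD113 genes with the largest changes, and families given for their number of copies, were added after their values were seen.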

Additional observations from a re-analysis of the deposited data

How the results depend on the processing

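The difference in the Rfam share of FPKM kept its direction under every alternative run, but its size depended on the denominator. As percent of the FPKM of all other transcripts it was -19.8 points in CON versus LOW, 39.9 points in CON versus HIGH and 59.8 points in LOW versus HIGH. In fragments over Rfam genes and other transcripts under 300 bases it was 0.0763 points in LOW versus HIGH, since Rfam genes held nearly all such fragments. With 1 library left out it ran from -6.86 to -0.116, from 3.60 to 18.2 and from 7.74 to 22.3 points in the same order.

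No family was called under any of 21 alternatives per comparison. Single genes were called under few of 20. The U2 gene was the 1 gene called in CON versus LOW with only the 2 groups, without HIGH replicate 2 and with DESeq2, and the 1 gene called in CON versus HIGH without HIGH replicate 2 and with DESeq2. DESeq2 called 2 SRP genes in LOW versus HIGH. Over the libraries left out, the count of genes called was 0 to 1 in CON versus LOW and in CON versus HIGH. The filter on 10 fragments, the assembled transcripts, the fragments as percent of all fragments and the denominator without the chromosome 22 locus were chosen after seeing the data. Of 945 fold changes of the 15 named families under alternatives, 923 kept their sign and none that changed sign was called. The filters, the replicate block and leaving out a library of the third group could hardly move these fold changes. The count of kept signs therefore overstates their stability. Without CON replicate 1, 8 of the 10 leading families changed sign in CON versus LOW.

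Libraries of different groups share replicate numbers, but deviations of same-numbered libraries correlated at -0.00541 to 0.257 in 9 pairs, against -0.261 to 0.0579 in 18 pairs with different numbers, and 13 of 18 best matches had the same number. That is a hint of pairing from the data, but the labels give none and not every pair was above 0.1, so the number was not taken as a pairing. With the replicate block, 0 families and 0 genes were called in each comparison, and the counts at an unadjusted p under 0.05 were 26, 35 and 52 families (9.59%, 12.9% and 19.2%), beside 2.92%, 14.4% and 15.3% of all features in the same fit, and 55, 77 and 110 genes (7.77%, 10.9% and 15.5%), beside 3.65%, 10.4% and 11.3% of all transcripts. Low counts limit the rest: 2388 of the 2644 genes had a mean under 10 fragments. For the 4 leading families the interval also depended on whether families or single transcripts were fitted.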
